A study of Homo sapiens with 18 samples.

Results

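The genes described here are 10 cytokines and chemokines of the inflammatory response, taken as a fixed list from the 19748 genes of the expression table: CXCL1, CXCL2, CXCL3, CXCL8, IL6, LIF, IL11, CCL2, CCL20 and IL32. All 10 were present in the table. With a mean over 18 libraries of 0.159 TPM (the share of all transcripts, corrected for their length), CCL2 was the member below a mean of 1 TPM and was not tested. The other 9 were tested among 13070 genes. CXCL2 was just inside, at 1.07 TPM. Without the empty-vector sgPOU2F3 group, 4 of the 9 (CXCL2, IL6, IL11 and CCL20) would have averaged 0.725, 0.729, 0.652 and 0.912 TPM, so these 4 passed the filter through the group in which they were highest. Their count there is therefore not independent of the filter.

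Chemokines are small secreted proteins that attract leukocytes. CXCL8 acts on the receptors CXCR1 and CXCR2, CXCL1, CXCL2 and CXCL3 act mainly on CXCR2, and all of these recruit neutrophils. CCL2 acts on CCR2 of monocytes and CCL20 on CCR6 of lymphocytes and dendritic cells. IL6, LIF and IL11 signal through the shared receptor chain gp130 (the product of IL6ST) to JAK kinases and STAT3, and IL32 is an inflammatory cytokine of lymphoid and epithelial cells. In epithelial cells the transcription of most of these genes is driven by NF-kB and AP-1. Tuft cells, rare chemosensory epithelial cells, are better known for IL25 and lipid mediators than for these proteins.

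All groups were of NCI-H211, a cell line from small cell lung cancer of the tuft-like subtype, and all carried Cas9. POU2F3 binds octamer DNA and is required for tuft cells to form, and the series asks how it recruits its coactivator on DNA. Cells stably carried either no cDNA (empty vector), normal POU2F3 that the guide cannot cut (WT), or that cDNA with leucine replaced by alanine (L191A), and each line was then infected with a control guide (sgRosa) or a guide against endogenous POU2F3 (sgPOU2F3) and sampled on day 5. The 6 groups were empty vector with sgRosa, empty vector with sgPOU2F3, WT with sgRosa, WT with sgPOU2F3, L191A with sgRosa and L191A with sgPOU2F3, with 3 libraries each. The labels describe triplicate infections of each stable line, so p-values measure the spread between infections and not between independently made lines. That spread is estimated for each gene over all 6 groups together, whichever groups are compared. A bulk level cannot tell apart fewer expressing cells and less RNA per cell.

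In empty-vector cells POU2F3 read 681.7, 653.7 and 853.0 TPM with sgRosa and 252.6, 317.6 and 274.2 TPM with sgPOU2F3. The 3 libraries of each guide did not overlap, and the log2 difference was −1.37 (limma adjusted p = 0.0616, and 1.96e-07 in 16 libraries). In the other lines the POU2F3 value may include the cDNA. It ran from 1700.6 to 1880.5 TPM with sgRosa and 1048.9 to 1275.8 TPM with sgPOU2F3 in WT cells. In L191A cells it read 142.0, 1053.2 and 831.0 TPM with sgRosa and 620.9 to 672.2 TPM with sgPOU2F3, the first of these being below every sgPOU2F3 library of the series. Under sgPOU2F3, the log2 difference of L191A from WT cells was −0.83 in 18 libraries (limma adjusted p = 0.303, not called). In 16 libraries it was −0.84 and called lower (adjusted p = 0.000155). The part of this in differences between the lines was not tested. L191A sgRosa replicate 1 and WT sgPOU2F3 replicate 1 stood apart, with 38.0% and 32.78% of TPM in ribosomal protein genes against 15.77% to 26.43% in the other 16, and median levels of 7.05 and 12.73 TPM against 18.6 to 26.43 TPM. Results are therefore given in all 18 libraries and in the 16 without them. Because the spread is shared by all groups, p-values also change in comparisons that hold neither library, as for POU2F3 in empty-vector cells. Depth was unknown, so no counting error could be set on low values. The 12 tuft markers, all above a mean of 1 TPM, summed to 4023 to 4902 TPM in empty-vector sgRosa and 1303 to 1547 TPM in empty-vector sgPOU2F3 libraries, and the 8 neuroendocrine markers to 60.3 to 64.7 and 41.6 to 51.5 TPM. POU2F3, the gene targeted and supplied as cDNA, is 1 of the 12 tuft markers (mean 880 TPM), so the tuft sums include its own change. Over all groups the tuft sums ran from 1109 to 5920 TPM, and the neuroendocrine sums from 30.6 to 97.9 TPM. The lowest tuft sum was in the L191A sgRosa group, which ran from 1109 to 3167 TPM and holds 1 of the 2 libraries that stood apart. The part of these markers in the results was not tested. Of the markers of cell types that make these cytokines in tissue, 10 myeloid genes summed to 9.01 to 11.7 TPM in empty-vector sgPOU2F3 libraries and 11.4 to 12.7 TPM in empty-vector sgRosa libraries. Of these 10, PTPRC, CD14, CD68 and LYZ had means of 3.69, 4.48, 1.65 and 1.41 TPM and were above 0 in every library, TYROBP was listed at 0 in all 18, and the other 5 had means of at most 0.475 TPM. The 8 lymphoid markers summed to at most 2.12 TPM and the 6 endothelial markers to at most 1.04 TPM in any library. The 8 fibroblast markers summed to 21.3 to 27.6 TPM against 9.26 to 11.5 TPM in the same 2 empty-vector groups and 20.4 to 25.4 TPM in WT sgRosa libraries, and their part in the results was not tested.

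Promoter sequences are shown before the values, because most members share a motif there. RefSeq promoters (GRCh38.p14) were matched by symbol for 8 of the 10 members, all except LIF and CCL2. In the 250 bases before the RefSeq start, 7 of the 8 held, in at least 1 of their 9 promoter entries, a kappaB-like motif, the kind of letters NF-kB is known to bind, spelled GGNNTTTCC on either strand. Of 35116 RefSeq promoters, 5.48% held it in the same window. IL32 has a second entry, which held no match. The motifs were chosen after the promoters had been seen. The first match of each of the 7 is shown with 10 bases on either side, 5′ to 3′ on the gene's strand, so that the flanks can be compared. Capitals mark the match, which in CCL20 is on the opposite strand.
CXCL1 (chr4:73869305-73869333, plus strand): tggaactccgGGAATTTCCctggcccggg
CXCL2 (chr4:74099254-74099282, minus strand): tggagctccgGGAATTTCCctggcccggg
CXCL3 (chr4:74038749-74038777, minus strand): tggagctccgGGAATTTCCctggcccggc
CXCL8 (chr4:73740468-73740496, plus strand): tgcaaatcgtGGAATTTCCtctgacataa
IL6 (chr7:22727118-22727146, plus strand): atcaaatgtgGGATTTTCCcatgagtctc
CCL20 (chr2:227813753-227813781, plus strand): tgatcaatggGGAAAACCCcatgtggcaa
IL32 (chr16:3065295-3065323, plus strand): ctgtactcagGGAGTTTCCccagccagct
CXCL1, CXCL2 and CXCL3 had the match in closely similar flanks, and CXCL8 had the same 9 letters in other flanks. Each of CXCL1, CXCL2 and CXCL3 also held a further match, GGGCTTTCC, from 53 to 45 bases before the start. GENCODE 29 annotates exons that begin upstream of the RefSeq start in several of these genes, and the matches shown for CXCL2, CXCL3 and IL32 lie within them.

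Longer stretches are shown for CXCL8, IL6 and IL11, because these contrast in the motifs they hold. They begin 250 bases before the RefSeq start and end at the first GENCODE exon or at the RefSeq start. Capitals mark the kappaB-like motif and the AP-1 motif, spelled TGANTCA on either strand.
CXCL8 (chr4:73740319-73740505, plus strand): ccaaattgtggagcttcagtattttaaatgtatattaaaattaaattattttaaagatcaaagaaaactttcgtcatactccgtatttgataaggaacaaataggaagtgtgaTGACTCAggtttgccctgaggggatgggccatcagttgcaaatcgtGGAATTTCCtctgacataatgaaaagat
IL6 (chr7:22726950-22727146, plus strand): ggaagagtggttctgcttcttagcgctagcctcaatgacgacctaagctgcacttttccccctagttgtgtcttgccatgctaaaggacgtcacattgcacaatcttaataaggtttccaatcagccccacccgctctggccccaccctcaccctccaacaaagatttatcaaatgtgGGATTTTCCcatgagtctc
IL11 (chr19:55370464-55370713, minus strand): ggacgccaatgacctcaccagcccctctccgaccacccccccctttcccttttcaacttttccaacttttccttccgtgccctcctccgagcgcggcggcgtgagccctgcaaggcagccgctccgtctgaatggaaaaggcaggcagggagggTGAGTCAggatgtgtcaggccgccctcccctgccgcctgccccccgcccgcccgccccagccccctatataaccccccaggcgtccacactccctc
CXCL8 held TGACTCA 137 to 131 bases and GGAATTTCC 91 to 83 bases before the start. IL6 held GGATTTTCC 72 to 64 bases before the start, with no match to TGANTCA in the 250 bases. IL11 held TGAGTCA 96 to 90 bases before the start, with no match to GGNNTTTCC there. The AP-1 motif was in 6.57% of all promoters and in 2 of the 8 member promoters. The octamer ATGCAAAT, the sequence that POU2F3 and its relatives are known to bind, was in 1.63% of all promoters and in none of the 8 (either strand). The motif GGAATG of the TEAD factors (either strand) was in 11.9% of all promoters and in CCL20 and IL32. None of these motifs overlapped another in a member promoter. A match describes letters and does not show binding.

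**Figure D1:**
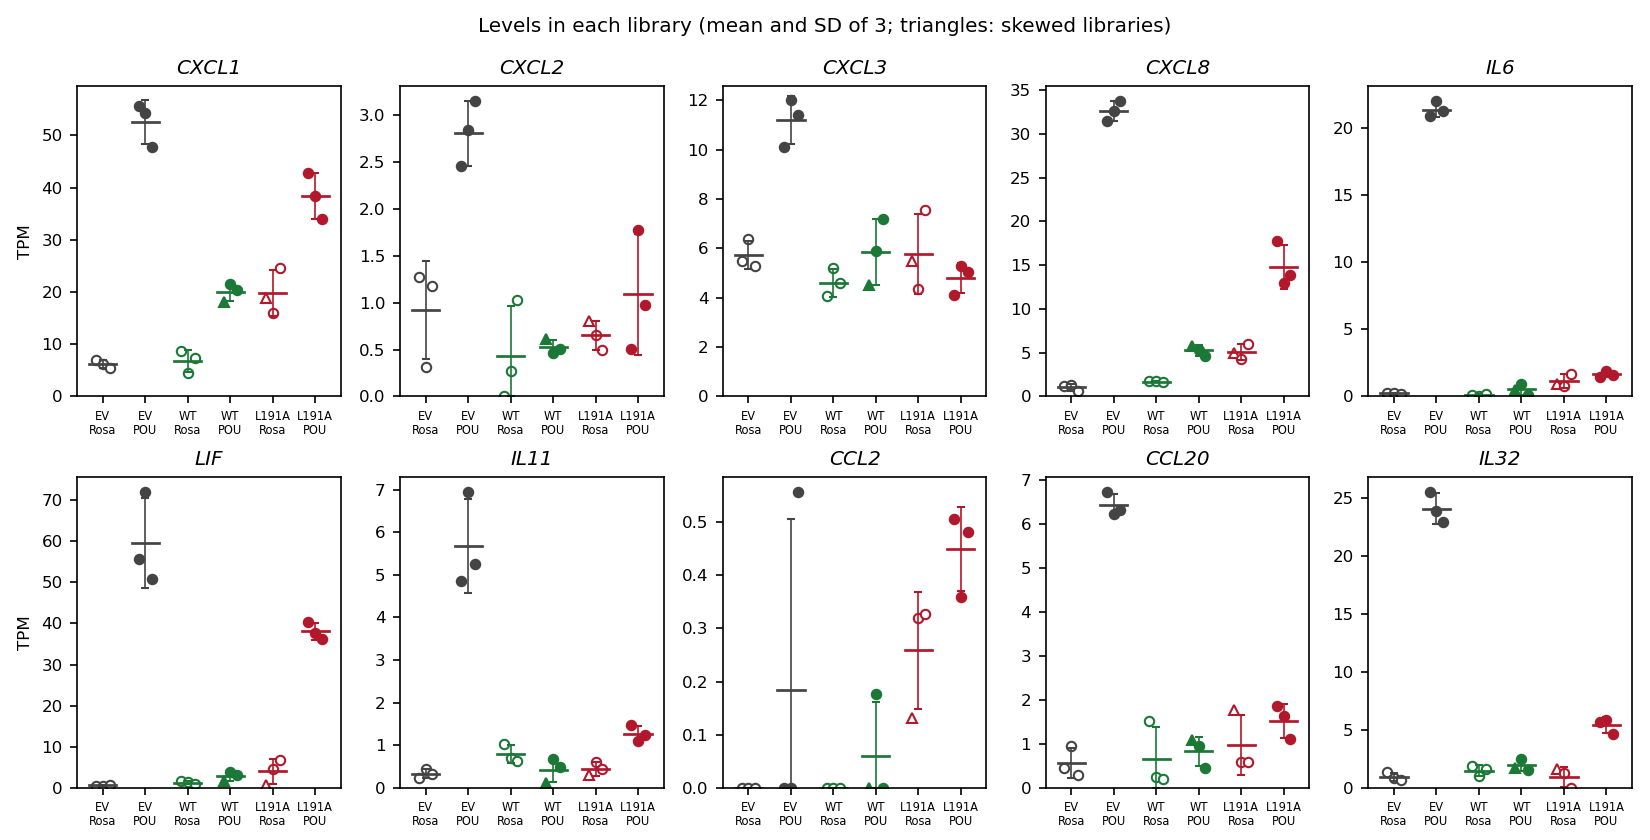
TPM (linear axis from 0, its range differing between panels) of the 10 members in each of the 18 libraries. Open symbols are sgRosa (Rosa) and filled symbols sgPOU2F3 (POU), for the empty vector (EV, grey), WT (green) and L191A (red) lines, triangles are the 2 skewed libraries, and bars are the mean and SD of 3. For 9 members the empty-vector sgPOU2F3 libraries are the highest of all, from 2.46 TPM for CXCL2 to 71.9 TPM for LIF.

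The first comparison asked what targeting POU2F3 does to these genes where no cDNA covers its loss. All 9 tested members rose in empty-vector cells, in 18 and in 16 libraries, where 7.95% of all genes tested rose in 18 libraries and 19.1% in 16. The 5 whose mean stayed above 1 TPM without the empty-vector sgPOU2F3 group (CXCL1, CXCL3, CXCL8, LIF and IL32) were all among them. The median log2 difference of the 9 was 2.89, against −0.13 over all genes. All log2 differences are on the log2(TPM + 1) scale, which understates changes at low TPM. In empty-vector sgRosa cells 7 of the 10 members had a group mean under 1 TPM. In empty-vector sgPOU2F3 cells this held for CCL2 alone. In the 9 tested members every sgPOU2F3 library lay above every sgRosa library, as was so for 2627 of all 13070 genes tested.

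Among the neutrophil chemokines CXCL8, the main neutrophil attractant of human epithelium, had the largest rise. It read 1.21, 1.26 and 0.599 TPM with sgRosa and 31.5, 32.6 and 33.8 TPM with sgPOU2F3 in empty-vector cells. Every sgPOU2F3 library was far above every sgRosa library, a 31.8-fold ratio of means and a log2 difference of 4.07 (SE 0.18, limma adjusted p = 2.46e-10). CXCL1, also called GRO alpha, started higher and read 7.06, 6.21 and 5.51 TPM with sgRosa and 55.7, 54.3 and 47.8 TPM with sgPOU2F3. Its rise was 8.40-fold (log2 difference 2.89, SE 0.21, adjusted p = 8.36e-08). Its near relatives CXCL3 and CXCL2 rose less. CXCL3 went from 5.73 ± 0.580 to 11.2 ± 0.976 TPM (SD, n = 3), a log2 difference of 0.86 (adjusted p = 0.00711), and CXCL2 from 0.923 ± 0.526 to 2.81 ± 0.346 TPM, a log2 difference of 1.03 (adjusted p = 0.0126). The call of CXCL2 was lost at a pseudocount of 0.1 (adjusted p = 0.112) and without empty-vector sgRosa replicate 2, where its value was 0.77 (adjusted p = 0.0683), or sgPOU2F3 replicate 3 (0.96, adjusted p = 0.0524). Of the 31-base words of CXCL2 transcripts in GENCODE 29, 10.8% occurred in CXCL1 and 13.6% in CXCL3, so the division of reads among these genes is uncertain.

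The gp130 cytokines included the largest rises of the list. LIF, which maintains stem cells and acts on many epithelia, read 0.526, 0.442 and 0.822 TPM with sgRosa and 55.7, 71.9 and 50.9 TPM with sgPOU2F3, a log2 difference of 5.24 (SE 0.39, adjusted p = 8.53e-08). IL6, the acute-phase cytokine, read 0.261, 0.255 and 0.165 TPM with sgRosa and 20.9, 22 and 21.2 TPM with sgPOU2F3. Its log2 difference was 4.19 (SE 0.19, adjusted p = 2.54e-10). The ratios of means, 99.7 for LIF and 94.1 for IL6, rest on sgRosa levels under 1 TPM whose counting error is unknown. IL11, a gp130 cytokine of stroma and epithelium, read 0.241, 0.439 and 0.324 TPM with sgRosa and 4.86, 6.94 and 5.26 TPM with sgPOU2F3 (log2 difference 2.31, SE 0.17, adjusted p = 6.21e-08). In none of these 3 genes did the guides overlap.

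IL32 read 1.36, 0.863 and 0.667 TPM with sgRosa and 25.5, 23.9 and 22.9 TPM with sgPOU2F3, a log2 difference of 3.69 (SE 0.29, adjusted p = 1.46e-07). CCL20, the CCR6 ligand of mucosal epithelium, read 0.452, 0.942 and 0.293 TPM with sgRosa and 6.72, 6.23 and 6.31 TPM with sgPOU2F3, a log2 difference of 2.27 (SE 0.28, adjusted p = 2.84e-05). Both were well separated between the guides. CCL2, the monocyte attractant, was listed at 0 in all 3 sgRosa libraries and in 2 of the 3 sgPOU2F3 libraries, the other reading 0.556 TPM. It was the member that stayed near 0 in these cells. At a fit without the filter its log2 difference was 0.21 (adjusted p = 0.329).

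The second comparison asked how much of this remained with a guide-resistant wild-type cDNA. In WT cells 2 of the 9 tested members rose (1.57% of all genes did), CXCL1 and CXCL8, and in 16 libraries 3 rose (5.70% of all genes), LIF being added. The median of the 9 was 0.28 and that of all genes −0.42. CXCL1 read 8.64, 4.39 and 7.32 TPM with sgRosa and 18.1 (the skewed library), 21.6 and 20.4 TPM with sgPOU2F3, a log2 difference of 1.47 (SE 0.21, adjusted p = 0.00119). CXCL8 read 1.72, 1.71 and 1.67 TPM with sgRosa and 5.78 (skewed), 5.35 and 4.63 TPM with sgPOU2F3, a difference of 1.21 (SE 0.18, adjusted p = 0.0015). The guides did not overlap for either gene. In WT cells 1387 of all 13070 genes tested likewise lay higher in every sgPOU2F3 library. The sgPOU2F3 levels of CXCL1 and CXCL8 stayed at 38.1% and 16.1% of those in empty-vector cells.

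LIF in WT cells read 1.6, 1.32 and 1 TPM with sgRosa and 1.71 (skewed), 3.93 and 3.11 TPM with sgPOU2F3. The groups did not overlap, but the skewed library lay close to the sgRosa range. Its log2 difference was 0.73 (adjusted p = 0.167) in 18 libraries and 0.97 (adjusted p = 0.0032) in 16, and it was also called under median-ratio scaling (0.99) and quantile normalization (1.11). IL6 in WT cells stood at 0.115 ± 0.0538 and 0.526 ± 0.413 TPM (SD, n = 3), with overlap and a difference of 0.42 (95% interval 0.02 to 0.81, adjusted p = 0.116). Without WT sgPOU2F3 replicate 3 the IL6 difference was called (0.62, adjusted p = 0.0333). IL11 stood at 0.789 ± 0.210 and 0.421 ± 0.288 TPM, a difference of −0.35 (adjusted p = 0.134). The skewed sgPOU2F3 library read 0.108 TPM against 0.673 and 0.483 TPM, and in 16 libraries the difference was −0.18 (adjusted p = 0.38). CXCL2, CXCL3, CCL20 and IL32 had differences of 0.15, 0.28, 0.22 and 0.24, none called, but CXCL3 was called under quantile normalization (0.86, adjusted p = 0.0327). CCL2 was listed at 0 in 5 of the 6 WT libraries.

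In L191A cells 5 of the 9 tested members rose, CXCL1, CXCL8, LIF, IL11 and IL32, in 18 libraries (5.43% of all genes rose) and in 16 (7.38%). The median of the 9 was 0.65 and that of all genes 0.33, or 0.66 and 0.01 in 16 libraries. LIF had the largest rise. It read 0.787 (the skewed library), 4.51 and 6.74 TPM with sgRosa and 40.4, 37.6 and 36.3 TPM with sgPOU2F3, a log2 difference of 3.20 (SE 0.39, adjusted p = 4.48e-05) in 18 libraries and 2.58 (SE 0.18, adjusted p = 5.12e-08) in 16. IL32 read 1.63 (skewed), 1.3 and 0 TPM with sgRosa and 5.70, 5.87 and 4.61 TPM with sgPOU2F3, a difference of 1.81 (SE 0.29, adjusted p = 0.000713). Both genes were higher in every sgPOU2F3 library, which in L191A cells was so for 3150 of all 13070 genes tested.

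CXCL8 in L191A cells read 4.91 (skewed), 4.31 and 6.01 TPM with sgRosa and 17.7, 13.0 and 13.9 TPM with sgPOU2F3, a log2 difference of 1.38 (SE 0.18, adjusted p = 9.38e-05). CXCL1 read 18.9 (skewed), 16 and 24.5 TPM and then 42.8, 38.4 and 33.9 TPM, a difference of 0.93 (SE 0.21, adjusted p = 0.0133). IL11 read 0.297 (skewed), 0.614 and 0.438 TPM and then 1.47, 1.10 and 1.23 TPM, a difference of 0.65 (adjusted p = 0.0282). Each of the 3 was separated between the guides with sgPOU2F3 higher, as were 3150 of all 13070 genes tested. The CXCL1 call was lost under median-ratio scaling (0.50, adjusted p = 0.251), under quantile normalization (0.55, adjusted p = 0.174) and without sgPOU2F3 replicate 1 (0.85, adjusted p = 0.0803) or 2 (0.93, adjusted p = 0.055). CXCL8 kept a difference of 0.83 under quantile normalization, with an adjusted p of 0.0791. The IL11 call was lost at either other pseudocount, under quantile normalization and without any single sgPOU2F3 library or the skewed sgRosa library, with adjusted p between 0.0554 and 0.134.

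IL6 gave another pattern in L191A cells. It read 0.954 (skewed), 0.738 and 1.70 TPM with sgRosa and 1.47, 1.91 and 1.56 TPM with sgPOU2F3, so that the guides overlapped (log2 difference 0.34, 95% interval −0.06 to 0.73, adjusted p = 0.273). CXCL3 overlapped as well, at 5.79 ± 1.62 and 4.81 ± 0.604 TPM (SD, n = 3, difference −0.20, adjusted p = 0.476). CXCL2 and CCL20 had differences of 0.30 and 0.40, not called. CCL2 was above 0 in all 6 L191A libraries, between 0.132 and 0.506 TPM. At a fit without the filter CCL2 was higher in L191A than in WT cells under sgPOU2F3 (log2 difference 0.45, adjusted p = 0.0352), at 0.449 ± 0.0790 against 0.0591 ± 0.102 TPM (SD, n = 3). No other contrast of that fit called CCL2. These levels are near 0, the WT sgPOU2F3 libraries reading 0, 0.177 and 0 TPM.

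**Figure D2:**
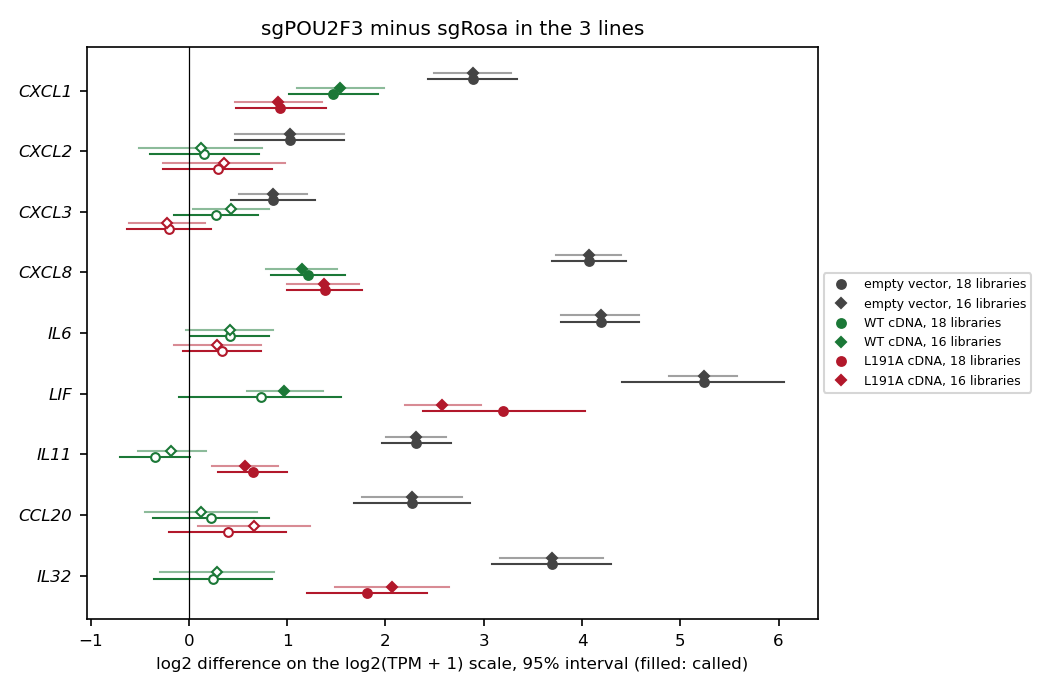
Log2 difference of sgPOU2F3 minus sgRosa for the 9 tested members on the log2(TPM + 1) scale, with 95% intervals from limma, in the empty-vector, WT and L191A lines. Circles are fits of 18 libraries, diamonds of 16, and filled symbols were called. All 9 empty-vector values lie above 0, from 0.86 for CXCL3 to 5.24 for LIF, and the LIF value in L191A cells, 3.20, lies apart from that in WT cells, 0.73.

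The difference of the guide response between lines was tested directly. Against empty-vector cells, the response of WT cells was smaller for 7 of 9 members (5.27% of all genes were lower in 18 libraries; 7 of 9 and 17.7% in 16), and for 4 of the 5 that passed the filter without the empty-vector sgPOU2F3 group. The called values ran from −1.42 (SE 0.30, adjusted p = 0.00893) for CXCL1 to −4.51 (SE 0.55, adjusted p = 6.42e-05) for LIF. CXCL2 and CXCL3, at −0.87 and −0.58, were not called (adjusted p = 0.178 and 0.245). The CCL20 call was lost at a pseudocount of 0.1 (adjusted p = 0.0647). The CXCL1 value was −1.12 (adjusted p = 0.0632) under median-ratio scaling and −0.89 (adjusted p = 0.0846) under quantile normalization. The response of L191A cells was smaller than that of empty-vector cells for 8 of 9 (1.80% of all genes; 8 of 9 and 7.54% in 16 libraries), and for all 5 that passed the filter without that group, with IL6 at −3.85 (SE 0.26, adjusted p = 7.72e-07), CXCL8 at −2.69 (SE 0.25, adjusted p = 1.72e-05) and LIF at −2.03 (SE 0.55, adjusted p = 0.0412). At a pseudocount of 0.1 this count was 4, CXCL3, LIF, CCL20 and IL32 being lost, and without empty-vector sgRosa replicate 3 it was 5, CXCL3, LIF and IL32 being lost. The calls of CXCL3 and LIF were lost without any 1 of 10 of the 12 libraries compared, the exceptions being L191A sgRosa replicates 1 and 2, with adjusted p between 0.054 and 0.107 for CXCL3 and between 0.0541 and 0.0896 for LIF. The lines share the sgRosa and sgPOU2F3 groups of the empty vector in these comparisons.

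Between L191A and WT cells, 3 of 9 members responded more in L191A cells (10.7% of all genes; 3 of 9 and 11.4% in 16 libraries). The median over all genes was 0.79, and less that median the values of LIF, IL32 and IL11 were 1.68, 0.77 and 0.20. These were LIF (2.48, SE 0.55, adjusted p = 0.0142), IL32 (1.56, SE 0.40, adjusted p = 0.0294) and IL11 (0.99, SE 0.23, adjusted p = 0.0189). Both skewed libraries are in groups that enter this difference with a minus sign, and without them the values were 1.61 for LIF (adjusted p = 0.000801), 1.79 for IL32 (adjusted p = 0.00722) and 0.75 for IL11 (adjusted p = 0.0428), with a median of 0.28 over all genes. At a pseudocount of 0.1 the calls of LIF and IL32 were lost (adjusted p = 0.0581 and 0.0722). The IL32 call was also lost under both scalings (0.97 and 0.75). The IL32 and IL11 calls were also lost without WT sgRosa replicate 1 (1.45 and 0.90) or L191A sgPOU2F3 replicate 1 (1.53 and 0.93), and that of IL32 also without WT sgRosa replicate 3, WT sgPOU2F3 replicate 1 or L191A sgPOU2F3 replicate 2 (adjusted p from 0.0604 to 0.0736). For CXCL8 and IL6 the differences were 0.17 (95% interval −0.37 to 0.71) and −0.08 (95% interval −0.64 to 0.48), not called. CXCL1 and CXCL3 stood at −0.54 and −0.48, not called, but under median-ratio scaling they were called at −1.38 and −1.25 (adjusted p = 0.0357 each) and under quantile normalization at −1.53 and −1.52.

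With endogenous POU2F3 targeted, the lines were then compared with each other. WT cells were lower than empty-vector cells for all 9 tested members (13.9% of all genes were lower; 9 of 9 and 24.7% in 16 libraries). The reference here is the group through which 4 of the 9 passed the filter. Of the 5 that passed without it, all 5 were lower. The level in WT cells was 2.46% of that in empty-vector cells for IL6, 4.91% for LIF, 7.41% for IL11, 8.11% for IL32, 12.9% for CCL20, 16.1% for CXCL8, 18.7% for CXCL2, 38.1% for CXCL1 and 52.5% for CXCL3. The log2 differences ran from −0.84 for CXCL3 (adjusted p = 0.0068) to −3.98 for LIF (adjusted p = 2.75e-06). The CXCL3 call was lost under median-ratio scaling (−0.66, adjusted p = 0.0561) and quantile normalization (−0.65, adjusted p = 0.0705).

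L191A cells were lower than empty-vector cells for 6 of 9 (2.17% of all genes), and for 8 of 9 in 16 libraries (14.6%), CXCL2 and LIF being added. Neither group compared here holds a skewed library, so the same libraries entered the fits of 18 and of 16. Only the shared spread (SE of LIF 0.39 and 0.16) and the adjustment over all genes differed. Of the 5 that passed the filter without the empty-vector sgPOU2F3 group, 3 were lower, and 4 in 16 libraries. The members were spread out in this comparison. LIF stood at 64.1% of its empty-vector level and CXCL1 at 73.0%, with log2 differences of −0.62 (95% interval −1.44 to 0.21, adjusted p = 0.628, and 0.0127 in 16 libraries) and −0.45 (95% interval −0.90 to 0.01, adjusted p = 0.404). IL6 stood at 7.72%, a log2 difference of −3.08 (SE 0.19, adjusted p = 4.82e-08). Between these lay CXCL8 at 45.5% (−1.10), CXCL3 at 43.0% (−1.07), CXCL2 at 38.7% (−0.91, not called), CCL20 at 23.9% (−1.56), IL32 at 22.4% (−1.97) and IL11 at 22.3% (−1.55). The calls of CCL20 and IL32 were lost at a pseudocount of 0.1, at adjusted p of 0.0832 and 0.178.

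L191A cells were higher than WT cells for 6 of 9 (7.78% of all genes; 6 of 9 and 18.4% in 16 libraries). LIF was 13.1-fold higher, at 38.1 ± 2.06 against 2.92 ± 1.12 TPM (SD, n = 3), a log2 difference of 3.36 (SE 0.39, adjusted p = 2.06e-05). The others were CXCL8 (1.33, adjusted p = 9.22e-05), IL32 (1.12, adjusted p = 0.0159), CXCL1 (0.90, adjusted p = 0.00966), IL6 (0.83, adjusted p = 0.00687) and IL11 (0.69, adjusted p = 0.0108). CXCL2, CXCL3 and CCL20 were not called (0.41, −0.23 and 0.48). Without L191A sgPOU2F3 replicate 1 the count was 3, CXCL1 (0.82), IL11 (0.63) and IL32 (1.09) being lost. The CXCL1 call was also lost under median-ratio scaling, and the IL32 call also at a pseudocount of 0.1, under both scalings and without WT sgPOU2F3 replicate 3 or L191A sgPOU2F3 replicate 2.

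**Figure D3:**
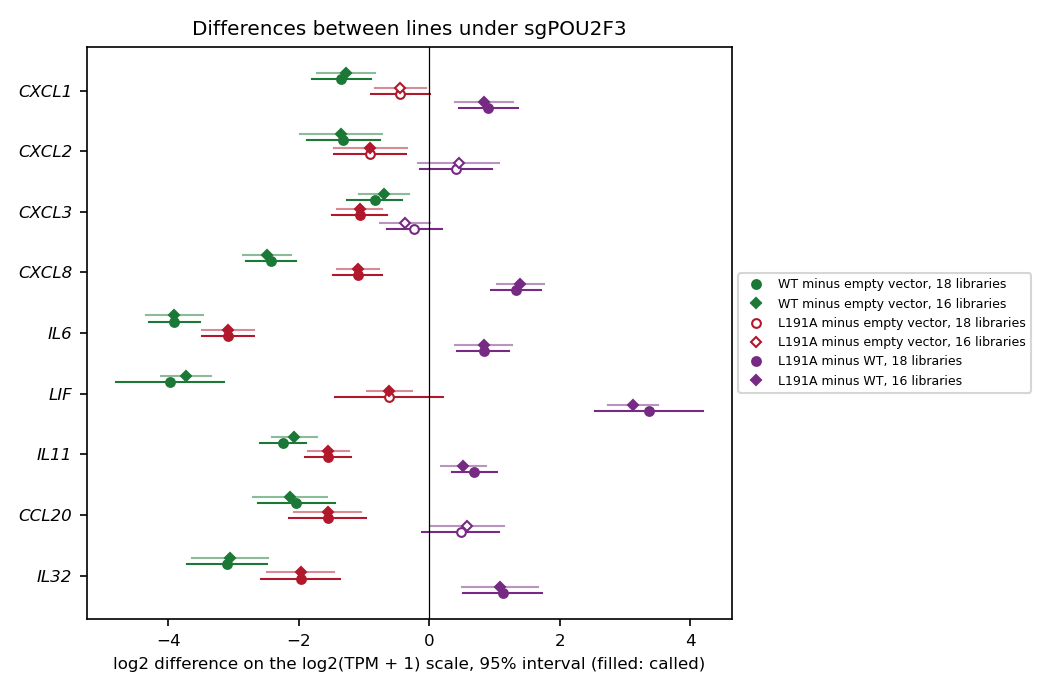
Log2 differences between lines under sgPOU2F3 for the 9 tested members on the log2(TPM + 1) scale, with 95% intervals from limma. Circles are fits of 18 libraries, diamonds of 16, and filled symbols were called. For IL6 the L191A value against the empty vector, −3.08, and the WT value, −3.91, both lie far below 0, whereas for LIF these are −0.62 and −3.98.

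Under the control guide the lines already differed. L191A cells were higher than empty-vector cells for 4 of 9 members (4.95% of all genes were higher; 4 of 9 and 9.30% in 16 libraries), against a median of −0.56 over all genes. The number of all genes higher, 647, was 2092 under median-ratio scaling and 2041 under quantile normalization. CXCL8 stood at 5.08 ± 0.864 against 1.02 ± 0.369 TPM (SD, n = 3), a log2 difference of 1.59 (adjusted p = 2.42e-05), and CXCL1 at 19.8 ± 4.33 against 6.26 ± 0.777 TPM, a difference of 1.5 (adjusted p = 0.000215). LIF and IL6 were higher by 1.42 (adjusted p = 0.0147) and 0.77 (adjusted p = 0.00833), and in 16 libraries LIF was higher by 2.04 (adjusted p = 5.84e-07). Against WT cells 3 of 9 were higher, CXCL1, CXCL8 and IL6 (7.75% of all genes), and in 16 libraries 4 were higher, with LIF (13.9%), and IL32 was lower (−0.70, adjusted p = 0.0371), where 44.3% of all genes were lower. In 18 libraries 1013 genes were higher and 6277 lower, against 3366 and 3175 under median-ratio scaling, and CXCL3, at 0.25, was then called at 0.89 (adjusted p = 0.00869), and at 1.22 under quantile normalization. LIF was also called under both, at 1.3 and 1.61. IL32 read 0 TPM in L191A sgRosa replicate 3, and its difference was 0.05 and 0.34 under the 2 scalings.

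WT cells under sgRosa differed from empty-vector cells in no member in 18 libraries by limma (2 of the 9 had an unadjusted p under 0.05), where 598 of the 13070 genes were higher. The same libraries of these groups entered the fits of 18 and of 16, and only the shared spread and the adjustment over all genes differed. In 16 libraries CXCL8 (0.43, adjusted p = 0.041), LIF (0.53, adjusted p = 0.0197) and IL11 (0.42, adjusted p = 0.0358) were higher, where 20.9% of all genes were. These are differences between levels of at most 1.70 TPM.

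The order of the groups was therefore not the same for each member. For CXCL8 the means ran from 32.6 TPM (empty vector, sgPOU2F3) through 14.8 (L191A, sgPOU2F3), 5.25 (WT, sgPOU2F3), 5.08 (L191A, sgRosa) and 1.70 (WT, sgRosa) to 1.02 TPM (empty vector, sgRosa). The third and the fourth overlapped. LIF ran in the order 59.5, 38.1, 4.01, 2.92, 1.31 and 0.596 TPM, with L191A sgRosa ahead of WT sgPOU2F3 and these neighbours overlapping in 18 libraries. Without the skewed libraries they did not overlap, at 4.51 and 6.74 against 3.93 and 3.11 TPM. For CXCL3 only the empty-vector sgPOU2F3 group, at 11.2 TPM, stood clear of the others, whose means lay between 4.61 and 5.86 TPM with overlaps. Over 16 libraries the Pearson correlations of log2(TPM + 1) among the 9 ran from 0.51 (CXCL3 with LIF) to 0.98 (CXCL8 with LIF), values that share libraries and the 6 groups.

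The neighbouring genes on chromosome 4 were read for context. CXCL8 (73740506 to 73743716, plus strand), CXCL1 (73869393 to 73871242, plus), CXCL3 (74036589 to 74038807, minus) and CXCL2 (74097035 to 74099293, minus) lie within 359 kb of GRCh38 that holds 9 protein-coding genes of the table. CXCL5 and CXCL6, neutrophil chemokines of the same block, went in empty-vector cells from 0.353 ± 0.0657 to 5.23 ± 0.293 TPM and from 2.49 ± 0.0916 to 13.4 ± 1.32 TPM (SD, n = 3). CXCL6 was at 12.8 ± 1.99 TPM in WT sgPOU2F3 cells and 23.8 ± 5.17 TPM in L191A sgPOU2F3 cells, so its highest mean was in L191A cells. The platelet genes PF4 and PPBP of the block were at means of 0.0561 and 0.0729 TPM. PF4V1 of the block had a mean of 7.91 TPM. It went from 3.81 ± 1.75 to 8.1 ± 1.06 TPM in empty-vector cells and stood at 11.1 ± 1.55 TPM in L191A sgRosa cells. The other members lie on chromosome 7 (IL6, 22725884 to 22732002, plus), 22 (LIF, 30240447 to 30246851, minus), 19 (IL11, 55364389 to 55370463, minus), 17 (CCL2, 34255218 to 34257203, plus), 2 (CCL20, 227805739 to 227817564, plus) and 16 (IL32, 3065297 to 3082192, plus), all protein-coding.

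Of 60 other cytokines and chemokines, 30 were tested, and in empty-vector cells 11 rose and 2 fell (13 and 5 in 16 libraries), with a median of 0.28. CSF2, the myeloid growth factor GM-CSF, was listed at 0 in the sgRosa libraries and stood at 9 ± 3.44 TPM with sgPOU2F3. CSF1, the macrophage growth factor, went from 0.746 ± 0.174 to 9.08 ± 1.55 TPM (log2 difference 2.52, adjusted p = 6.66e-07). In WT cells 2 rose and 3 fell and in L191A cells 8 rose and 0 fell. The response of WT cells was smaller than that of empty-vector cells for 9 and larger for 1 of the 30, with CSF2 at −3.19 (adjusted p = 2.35e-05) and CSF1 at −2.65 (adjusted p = 5.46e-05). This list was chosen with earlier results known, as were those that follow. Beside all these lists, 1039 of all 13070 genes rose and 1246 fell in empty-vector cells, 205 and 687 in WT cells, and 710 and 74 in L191A cells. In 16 libraries these counts were 2490 and 4270, 745 and 3978, and 964 and 436. The response of WT cells was smaller than that of empty-vector cells for 689 of all genes and larger for 224 (2317 and 1177 in 16 libraries).

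Of 10 listed receptors of the members, 9 were in the table and 4 tested, and in empty-vector cells 0 rose and 2 fell (1 and 3 in 16 libraries). Over all 13070 genes, 1246 fell there (4270 in 16 libraries). IL6R, the IL6 receptor, fell from 19.8 ± 4.05 to 7.84 ± 2.24 TPM (log2 difference −1.25, adjusted p = 0.0245), and IL11RA from 5.34 ± 0.461 to 2.52 ± 0.841 TPM (−0.87, adjusted p = 0.0169). LIFR stood at 40.9 ± 8.31 and 18.1 ± 4.21 TPM (−1.14, adjusted p = 0.0894) and IL6ST at 10.7 ± 1.84 and 17.8 ± 3.02 TPM (0.68, adjusted p = 0.351). No difference of response between WT and empty-vector cells was called in this list by limma in 18 libraries (0 of 4 had an unadjusted p under 0.05), and 1 was larger and 1 smaller in 16. In WT cells 0 rose and 1 fell and in L191A cells 0 were called (1 had an unadjusted p under 0.05, and 1 rose and 1 fell in 16 libraries).

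Of 15 tested genes of the gp130 and STAT3 pathway, 5 rose and 0 fell in empty-vector cells (9 and 2 in 16 libraries), with a median of 0.61. SOCS3, the feedback inhibitor induced by STAT3, went from 2.03 ± 0.281 to 23.5 ± 5.70 TPM (log2 difference 2.99, adjusted p = 2.44e-05), and stood at 25.8 ± 1.07 TPM in L191A and 5.51 ± 2.71 TPM in WT cells with sgPOU2F3. CEBPD, an inflammatory transcription factor, rose by 2.03 (adjusted p = 2.52e-05) and PIM1, a STAT3-induced kinase, by 1.79 (adjusted p = 0.000361). In WT cells 1 rose and in L191A cells 3 rose. The response of WT cells was smaller for 4, among them PIM1 (−2.38, adjusted p = 0.00153) and JUNB (−1.63, adjusted p = 0.0064).

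All 20 NF-kB subunits and feedback inhibitors were tested, and 11 rose and 0 fell in empty-vector cells (16 and 2 in 16 libraries), with a median of 0.81. BIRC3, an NF-kB-induced inhibitor of apoptosis, went from 4.77 ± 0.0622 to 25.9 ± 2.05 TPM (2.22, adjusted p = 3.63e-07), BCL3, a nuclear cofactor of NF-kB, from 9.81 ± 0.925 to 76.4 ± 17.2 TPM (2.82, adjusted p = 4.2e-05), and TNFAIP3, the feedback inhibitor A20, from 4.28 ± 0.329 to 16.9 ± 4.46 TPM (1.74, adjusted p = 0.000525). NFKBIA, the inhibitor of NF-kB, rose by 0.78 (adjusted p = 0.000158). In WT cells 0 were called by limma in 18 libraries (4 had an unadjusted p under 0.05, and 4 rose and 3 fell in 16), and in L191A cells 2 rose. The response of WT cells was smaller for 11 of the 20, with BIRC3 at −1.75 (adjusted p = 0.000554) and BCL3 at −2.79 (adjusted p = 0.00292).

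Of 8 tested AP-1 subunits, 6 rose and 0 fell in empty-vector cells (7 and 0 in 16 libraries), with a median of 1.89. FOSL1 went from 0.722 ± 0.451 to 102 ± 6.79 TPM (5.94, adjusted p = 2.36e-09) and was at 27.5 ± 2.71 TPM in L191A and 3.34 ± 0.631 TPM in WT cells with sgPOU2F3. FOSL2, BATF3 and JUNB rose by 3.20, 1.98 and 1.88 (adjusted p at most 0.000256). JUNB is also in the gp130 and STAT3 list and is counted in both. In L191A cells 3 rose and in WT cells 0 were called by limma (2 had an unadjusted p under 0.05, and 3 rose and 1 fell in 16 libraries). The response of WT cells was smaller for 5, with FOSL1 at −5.15 (adjusted p = 3.29e-06) and BATF3 at −1.88 (adjusted p = 0.00133). Of 15 tested sensors and receptors that act upstream of cytokine genes, 2 rose and 1 fell in empty-vector cells (10 and 3 in 16 libraries). Over all 13070 genes, 1039 rose and 1246 fell there (2490 and 4270 in 16 libraries), so the 18-library counts of this list are near the background. TNFRSF1A, the main TNF receptor, went from 31.8 ± 3.79 to 78.8 ± 7.90 TPM (1.28, adjusted p = 0.0136), IL1RAP, the shared chain of IL1 receptors, rose by 1.31 (adjusted p = 0.0084), and TLR4, the endotoxin receptor, fell by 0.78 on the log2 scale (adjusted p = 0.0238). TLR5, the flagellin receptor, stood at 2.01 ± 0.675 and 1 ± 0.184 TPM (adjusted p = 0.0703). In WT cells 0 of the 15 were called by limma (2 had an unadjusted p under 0.05, and 2 rose and 1 fell in 16 libraries), and in L191A cells 2 rose.

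**Figure D4:**
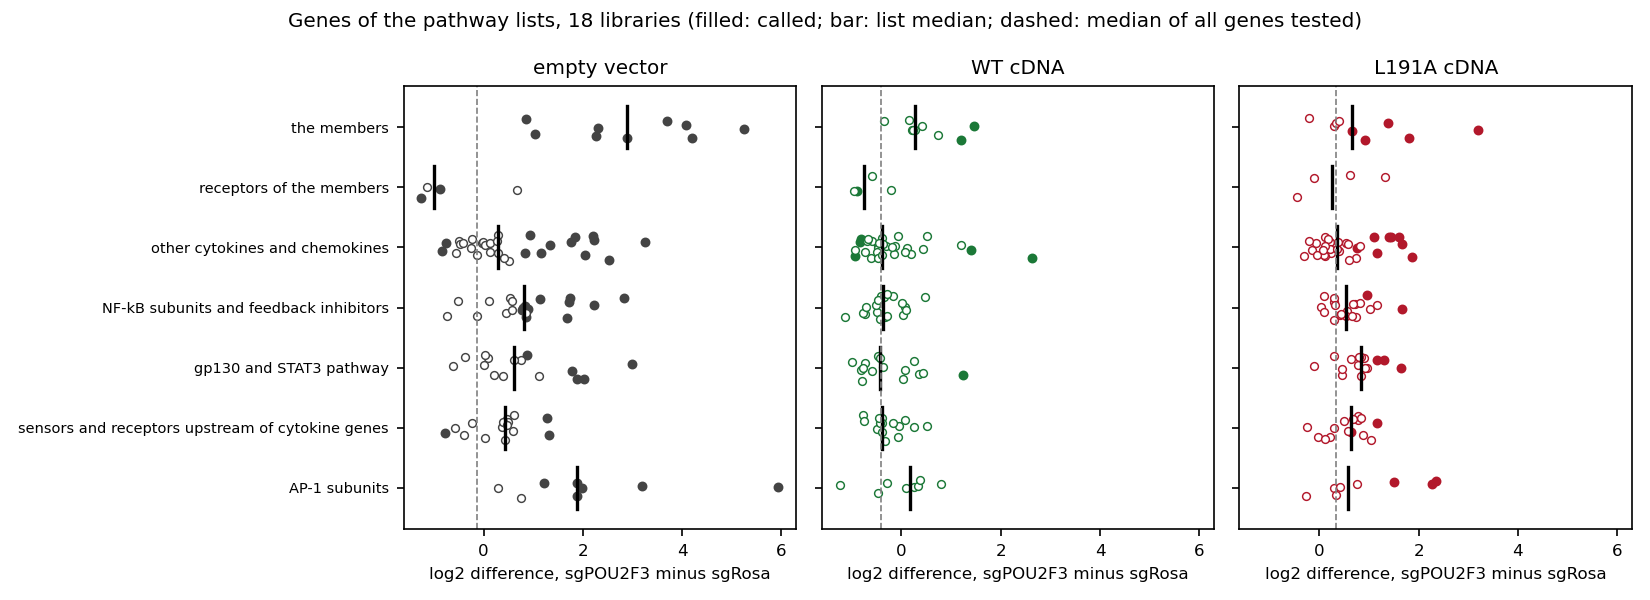
Log2 difference of sgPOU2F3 minus sgRosa on the log2(TPM + 1) scale in 18 libraries for the members and the tested genes of 6 pathway lists, in each line. Points are genes (filled where called, with vertical jitter), black bars list medians and the dashed line the median of all genes tested. In empty-vector cells the medians are 2.89 for the members and 1.89 for the AP-1 subunits, and in WT cells they are 0.28 and 0.18.

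Genes whose levels over 16 libraries were most like each member were taken from 11475 that reached a mean of 5 TPM in some group. For CXCL8 these were PLAU, FOSL1 and SERPINB7 (Pearson r 0.989 each), for LIF they were THBS1, ABCC3 and LAMB3 (0.995, 0.993 and 0.991), and for CXCL1 they were KRT17, CYR61 and FN1 (0.990, 0.982 and 0.982). For IL6 they included GADD45B and SERPINB3 (0.977 and 0.976). IL11 was nearest to FRMD6, TGFBI and TNFRSF6B (0.979, 0.969 and 0.968) and CCL20 to IER3, TGFBI and FRMD6 (0.955, 0.948 and 0.946). IL32 was nearest to TMPRSS11E, KISS1 and WFDC2 (0.969, 0.968 and 0.961). For CXCL2 (GADD45G, LRRC61 and JMJD4) and CXCL3 (FLOT1, APOBEC1 and ATF3) the highest r was 0.892 and 0.890. These values describe 16 libraries of 6 groups and carry no test.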

How the data were processed

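Poly(A) RNA of NCI-H211 cells was sequenced in 18 libraries of 6 groups. The deposited values were TPM per gene, made by the authors with kallisto and hg38, per the submitters' processing notes. For kallisto no version, transcript set or strand setting is given in the sources used here. Each column sums to 1000000, so depth is lost. Of 19875 entries, 127 that name no gene were left out (1.61% to 2.39% of TPM).

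Values were taken as log2(TPM + 1). The 13070 genes that averaged 1 TPM or more were fitted with limma 3.58.1 (R 4.3.3), 1 coefficient per group and a variance trend. Tests of the 12 contrasts were two-sided, with p adjusted by Benjamini-Hochberg over all genes and called under 0.05. The fit was tested on simulated data. An exact permutation test of 3 libraries against 3 cannot go below 0.10 and was not used. The members, the lists and the rule for named genes (all members, up to 4 genes of each list with the smallest p in empty-vector cells and 2 in the response of WT cells, 3 most alike genes for each member) were chosen with earlier results of these data known. A gene of the second kind is printed where its difference was called. One gene most alike to IL6 is not reported here. Alternatives were pseudocounts of 0.1 and 5, no filter, quantile normalization, median-ratio scaling, 16 libraries, a block for replicate number, and each library left out in turn. Gene positions are from GENCODE 29 (GRCh38) and promoters from RefSeq (GRCh38.p14).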

Additional observations from a re-analysis of the deposited data

Results flagged for a closer look

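Each difference below is a difference of the sgPOU2F3 response between lines that passed limma's test of that difference. It combines the levels under both guides, and under sgRosa L191A cells were already higher than empty-vector cells in CXCL1, CXCL8, IL6 and LIF. The response of WT cells less that of empty-vector cells was −1.42 for CXCL1, −2.86 for CXCL8, −3.77 for IL6, −4.51 for LIF, −2.66 for IL11, −2.05 for CCL20 and −3.44 for IL32. The response of L191A cells less that of empty-vector cells was −1.95 for CXCL1, −1.06 for CXCL3, −2.69 for CXCL8, −3.85 for IL6, −2.03 for LIF, −1.67 for IL11, −1.87 for CCL20 and −1.88 for IL32. The response of L191A cells less that of WT cells was 2.48 for LIF, 0.99 for IL11 and 1.56 for IL32.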

How the results depend on the processing

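Of 62 member differences called in 18 libraries, 847 of 914 values under the alternatives were called in the same direction, 67 kept the direction without a call and 0 changed sign. A further 33 differences were called under no setting, and 42 of their 471 values changed sign. The other 13 were called under at least 1 alternative, in 23 of 181 values, and 2 of the 181, both of IL32, changed sign. The count of members called in empty-vector cells stayed within 1.5 times of 9 under every alternative. Under quantile normalization the counts of members called were 4 in WT cells (2 in 18 libraries as deposited), 2 in L191A cells (5) and 5 for L191A against WT under sgRosa (3), and median-ratio scaling also gave 5 there. In 16 libraries the count for WT against empty vector under sgRosa was 3 (0) and that for L191A against WT under sgRosa 5 (3). At a pseudocount of 0.1 the response of L191A cells differed from that of empty-vector cells in 4 members (8) and from that of WT cells in 1 (3). The difference of IL32 between L191A and WT cells under sgRosa, −0.44 in 18 libraries, changed sign to 0.05 under median-ratio scaling and 0.34 under quantile normalization. With each library left out in turn, the counts were 8 to 9 (sgPOU2F3 in empty-vector cells), 2 to 3 (in WT cells), 3 to 5 (in L191A cells), 9 (WT against empty vector under sgPOU2F3), 6 to 7 (L191A against empty vector), 3 to 6 (L191A against WT), 0 (WT against empty vector under sgRosa), 4 (L191A against empty vector), 3 to 4 (L191A against WT), 7 (the response of WT against empty-vector cells), 5 to 8 (L191A against empty-vector cells), 1 to 3 (L191A against WT cells). These causes were not tested. Median-ratio scaling shifted the median of all genes by 0.13, 0.40 and −0.37 in empty-vector, WT and L191A cells, and the higher share of all calls from 23.0% to 52.6% in WT and from 90.6% to 66.4% in L191A cells. Less the median of all genes, the differences of LIF were 5.37, 1.15 and 2.87. In 16 libraries 6760 genes were called in empty-vector cells against 2285 in 18, from the same empty-vector libraries. Replicate numbers name infections, and whether the same number also stands for a shared batch is not given in the labels. Same-numbered libraries of compared groups correlated from −0.58 to 0.59 in their deviations, with 7 of 27 pairs over 0.1, and a shared batch was not tested. With the replicate block the members called were 9, 2, 5, 9, 6, 6, 0, 4, 3, 7, 8, 3 in the same order.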
